A study of Mus musculus with 9 samples.

Results

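The acetylcholine receptor of skeletal muscle and the kinase that gathers it under the nerve were followed through 6 genes: Chrna1, Chrnb1, Chrnd, Chrng and Chrne, which encode the alpha, beta, delta, gamma and epsilon subunits, and Musk, which encodes the muscle-specific kinase MuSK. They were chosen by gene symbol, and all 6 are among the 22831 genes of a table from stranded mRNA sequencing of C2C12 myotubes. C2C12 is an established mouse myoblast line, labelled wild type here, whose cells fuse into multinucleated myotubes after 5 to 7 days in low horse serum. The question of the series is the effect of carnitine on myotubes loaded with palmitic acid, a saturated fatty acid. There were 3 libraries in each of 3 groups: myotubes given 200 µM palmitic acid together with 1000 µM carnitine (PA + carnitine), myotubes given 200 µM palmitic acid alone (PA), and control myotubes, for which the labels name no vehicle. The treatment lasted 48 of a unit that the labels garble. All groups are 1 cell line, the labels name no nerve cells or agrin in the cultures, and they do not say whether replicates came from separate cultures, so each p-value measures only the spread between these libraries, which may be technical.

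The muscle receptor is a ligand-gated cation channel with a pair of alpha subunits, a beta, a delta and either gamma or epsilon. The gamma form belongs to fetal, uninnervated and denervated muscle, and the epsilon form replaces it at the innervated adult synapse. Motor nerve agrin binds LRP4, which activates MuSK. MuSK then works through DOK7 and rapsyn to cluster the receptor, while nerve-evoked electrical activity silences the fetal pattern outside the synapse, partly by lowering myogenin.

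Myogenic factors of the MyoD and myogenin family bind E-boxes in receptor gene promoters, and the GABP Ets factor binds an N-box at the synaptic epsilon promoter, so these motifs were read in the RefSeq promoter windows of the members (assembly GRCm38.p6, 250 bases before to 50 after the annotated start). A window was at hand for 5 of 6 members, all except Chrnd. The windows of the alpha subunit, the fetal gamma subunit and the adult epsilon subunit are shown because the contrast between these genes carries the results; capitals mark the E-box CAGCTG, which reads the same on both strands, and the N-box CCGGAA, searched on both strands.
Chrna1 (chr2:73580289-73580588, minus strand): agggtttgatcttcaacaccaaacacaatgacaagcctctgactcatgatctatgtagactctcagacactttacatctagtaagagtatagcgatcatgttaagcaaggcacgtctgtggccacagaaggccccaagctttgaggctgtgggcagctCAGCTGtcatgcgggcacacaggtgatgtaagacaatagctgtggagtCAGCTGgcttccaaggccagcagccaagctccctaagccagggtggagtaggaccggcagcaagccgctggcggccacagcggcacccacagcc
Chrng (chr1:87205561-87205860, plus strand): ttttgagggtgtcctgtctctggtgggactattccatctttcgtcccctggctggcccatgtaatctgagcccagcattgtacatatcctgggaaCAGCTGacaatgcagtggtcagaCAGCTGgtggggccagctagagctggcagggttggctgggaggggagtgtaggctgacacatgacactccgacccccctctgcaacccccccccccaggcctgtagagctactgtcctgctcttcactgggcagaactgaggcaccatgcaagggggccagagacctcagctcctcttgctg
Chrne (chr11:70619145-70619444, minus strand): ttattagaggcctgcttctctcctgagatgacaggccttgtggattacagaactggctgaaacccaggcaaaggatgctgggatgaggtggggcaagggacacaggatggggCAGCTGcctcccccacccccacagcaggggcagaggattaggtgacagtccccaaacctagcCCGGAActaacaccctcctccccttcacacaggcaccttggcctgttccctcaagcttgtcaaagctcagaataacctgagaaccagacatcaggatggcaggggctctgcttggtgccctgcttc
Chrna1 and Chrng each held 2 copies of CAGCTG, with first bases 92 and 44 bases before the start of Chrna1 and 155 and 132 bases before that of Chrng. Chrne held 1 copy at 138 bases before its start and, alone among the 5 windows, the N-box, at 76 bases before its start. Musk held 1 copy of CAGCTG at 68 bases before its start, and Chrnb1 had neither CAGCTG nor CCGGAA in its window. The wider E-box pattern CANNTG, where N is any base, had 3 sites each in Chrna1, Chrng, Musk and Chrnb1. Chrne had 1 such site, as did the median RefSeq window. Of 32851 RefSeq promoter windows of the same length, 16.3% held CAGCTG at least once, 1.9% held it at least 2 times, 14.9% held CCGGAA on either strand, and 2.05% held both motifs. The E-box and N-box do not overlap each other in the Chrne window. These matches are a description of letters and not of binding.

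**Figure D1:**
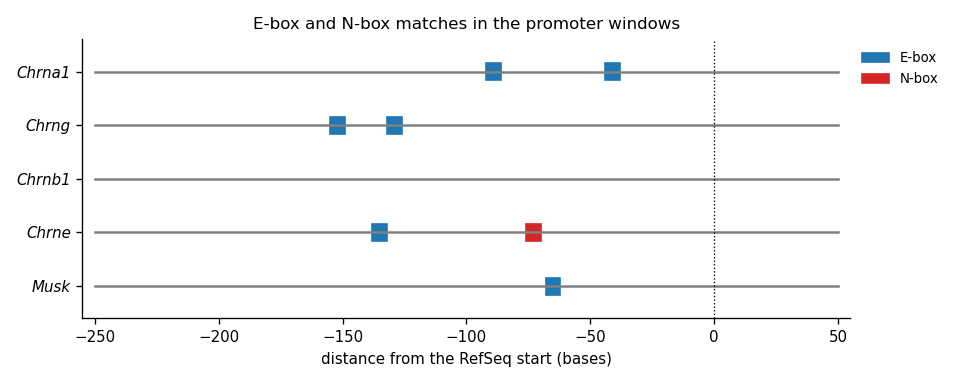
E-box CAGCTG (blue) and N-box CCGGAA (red) matches in the promoter windows of 5 members, with the distance in bases from the RefSeq start on the x axis. Chrna1 and Chrng carry 2 copies of CAGCTG each, Chrne carries 1 and the N-box, Musk carries 1 and Chrnb1 carries neither motif. Sites of the wider E-box pattern CANNTG, which Chrnb1 also holds, are not drawn unless they are CAGCTG.

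Total counts were 2.45 to 3.09 M counts in PA + carnitine libraries, 3.33 to 5.14 M in PA libraries and 2.31 to 3.31 M in control libraries. The libraries also differed in how their counts fell on the strands of the genome, and the strand setting of the counting is not given in the sources used here. The summed counts of 9510 protein-coding genes with no gene opposite their exons, divided by those of 1711 noncoding genes lying opposite coding exons, came to 0.653 to 0.831 in PA + carnitine, 1.21 to 3.48 in PA and 0.633 to 1.18 in control libraries. PA replicate 1 had the highest ratio of all 9 libraries and control replicate 3 the highest of the controls. The median log2 fold change of coding genes with no opposite-strand gene moved with it, at 0.27 for PA against control, -0.34 for PA + carnitine against PA and -0.06 for PA + carnitine against control, where all genes tested had 0.06, -0.10 and -0.02. None of the 5 members that could be tested has an annotated gene on the other strand over its exons. Each is therefore given both in a fit of all 12548 genes that passed the filter on low counts and in a fit restricted to the 5920 coding genes without an opposite-strand gene (the restricted fit), where the median fold change was -0.01, 0.00 and 0.00 in the same 3 comparisons.

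The cultures expressed the fetal form of the receptor. The order of levels, in FPKM (counts per kilobase of gene length and M counts), was Chrna1, Chrng, Chrnd, Chrnb1, Musk and Chrne. Each gene stood above the next in all 9 libraries, except that Chrng stood above Chrnd in 8 of 9, with a ratio between 0.812 and 1.61. Summed over the 9 libraries the members had 8128 counts for Chrna1, 5025 for Chrng, 3160 for Chrnd, 1250 for Chrnb1, 350 for Musk and 6 for Chrne.

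Chrng, the fetal subunit, had 25.7, 22.5 and 20.4 FPKM in PA + carnitine replicates 1, 2 and 3, 87.6, 44.1 and 43.3 FPKM in PA replicates 1, 2 and 3, and 21.8, 23.2 and 48.2 FPKM in control replicates 1, 2 and 3. Its 3 PA + carnitine libraries lay below its 3 PA libraries, while control replicate 3 overlapped with PA. In counts per M with TMM scaling (TMM-scaled CPM), 18.3% of all genes tested were lower in PA + carnitine without overlap with PA. The gene lies at chr1:87132379-87140416 (GRCm39, plus strand), 4586 bases after Chrnd on the same strand.

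Chrne, the adult subunit (chr11:70505709-70510042, GRCm39, minus strand), had 0, 4 and 0 counts in PA + carnitine replicates 1, 2 and 3, 2, 0 and 0 counts in PA replicates 1, 2 and 3, and 0 counts in each control library. The 4 counts are 0.966 FPKM and the 2 counts 0.230 FPKM. In the 7 libraries at 0, a count of 0 allows up to 3 counts, which is 0.516 to 0.769 FPKM, so expression below that level was not detectable at this depth. Chrne did not pass the filter on low counts and has no test. A coding gene, 4930544D05Rik, lies opposite Chrne with 0 bases of exon-to-exon overlap and had 60 counts over the 9 libraries.

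Per unit of length, gamma stood far above epsilon in every library. In PA + carnitine the ratio of Chrng to Chrne FPKM was at least 44.7-fold in replicate 1, 23.2 in replicate 2 (exact 95% interval 8.95 to 86.0, from the 4 Chrne counts) and at least 30.3-fold in replicate 3. In PA it was 380 in replicate 1 (interval 105 to 3142, from 2 Chrne counts) and at least 85.5-fold and 81.2-fold in replicates 2 and 3. In control libraries it was at least 28.4-fold, 35.6-fold and 89.9-fold in replicates 1, 2 and 3. These bounds take 3 Chrne counts per library, and the intervals and bounds cover counting error only. Pooled over the 9 libraries the ratio was 340 (95% interval 156 to 927).

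Whether the gamma to epsilon ratio differed between groups could not be settled at this depth. On log2((Chrng count + 0.5)/(Chrne count + 0.5)), PA + carnitine minus PA was -2.08 (two-sided exact permutation test, p = 0.1, the smallest that 3 against 3 allows), PA minus control was 0.65 (exact p = 0.4) and PA + carnitine minus control was -1.43 (exact p = 0.5). The number added to counts of 0 sets these values, and PA + carnitine replicate 2, with its 4 Chrne counts, carries much of them. Without it, PA + carnitine minus PA was -0.94 and PA + carnitine minus control was -0.29.

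Chrna1, the alpha subunit that carries most of the acetylcholine binding site (chr2:73393559-73410682, GRCm39, minus strand), had 47.7, 44.5 and 50.0 FPKM in PA + carnitine replicates 1, 2 and 3, 119.7, 66.4 and 70.2 FPKM in PA replicates 1, 2 and 3, and 37.7, 33.2 and 63.8 FPKM in control replicates 1, 2 and 3. All 3 PA libraries lay above the other 6, with PA replicate 1 highest and control replicate 3 the highest control.

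Chrnd, the delta subunit (chr1:87118329-87127792, GRCm39, plus strand), had 25.3, 22.1 and 25.2 FPKM in PA + carnitine replicates 1, 2 and 3, 62.7, 36.9 and 36.0 FPKM in PA replicates 1, 2 and 3, and 17.8, 19.6 and 29.9 FPKM in control replicates 1, 2 and 3. It showed the same picture as Chrna1, with every PA library above every other. Such separation was not particular to these subunits. By TMM-scaled CPM, 11.7% of all genes tested were higher in every PA library than in every control library. For PA + carnitine against PA, 18.3% were lower without overlap.

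Chrnb1, the beta subunit (chr11:69674862-69686769, GRCm39, minus strand), had 17.0, 14.8 and 11.3 FPKM in PA + carnitine replicates 1, 2 and 3, 27.7, 13.9 and 17.6 FPKM in PA replicates 1, 2 and 3, and 13.2, 14.6 and 17.1 FPKM in control replicates 1, 2 and 3. Its groups overlapped in every comparison, and only PA replicate 1 stood apart in FPKM. In TMM-scaled CPM that library had 46.5, close to 45.9 in PA + carnitine replicate 1. Among coding genes with no opposite-strand gene it had 154 CPM, between 126 in PA replicate 2 and 208 in control replicate 2.

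Musk (chr4:58285960-58374303, GRCm39, plus strand) had 2.15, 2.38 and 2.72 FPKM in PA + carnitine replicates 1, 2 and 3, 7.12, 3.46 and 2.15 FPKM in PA replicates 1, 2 and 3, and 2.06, 2.14 and 2.08 FPKM in control replicates 1, 2 and 3. PA ran from about the control level to its highest value in replicate 1, so the spread within PA exceeded the distance between PA + carnitine and control. In bulk RNA, fewer myotubes and less receptor RNA per myotube cannot be told apart for any of these genes.

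**Figure D2:**
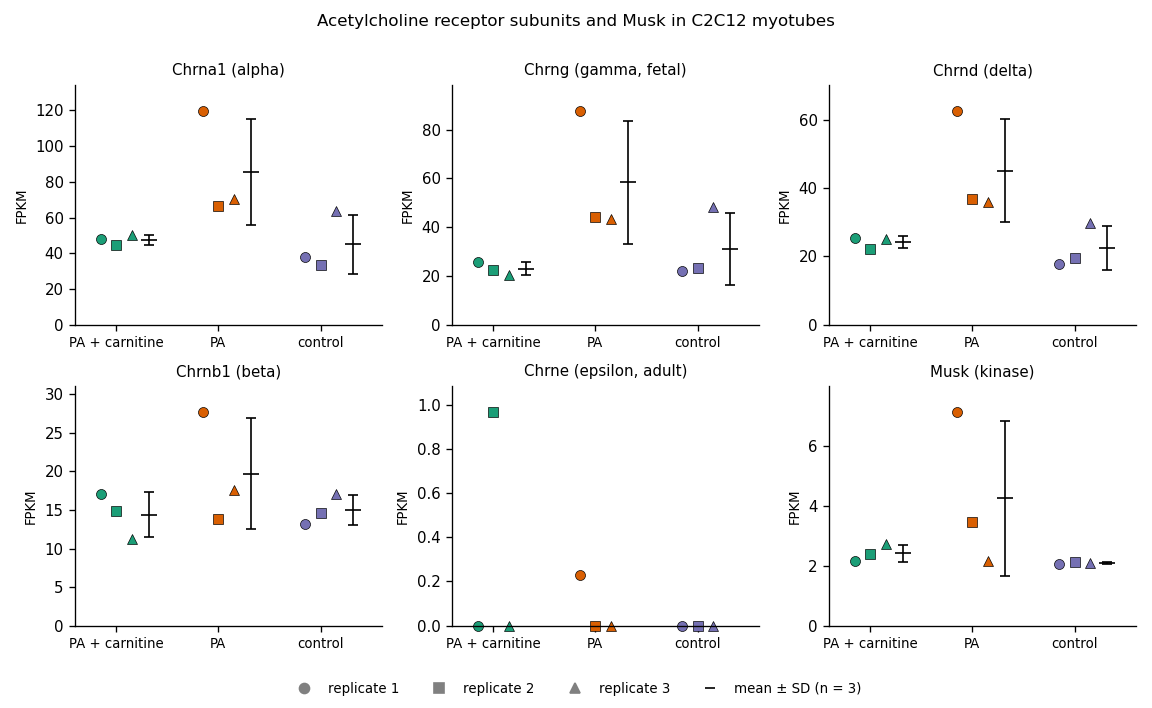
FPKM of the 6 members in each of the 9 libraries, with groups on the x axis, a marker for each replicate and the mean ± SD beside it (n = 3; none is drawn for Chrne, which is at 0 in 7 libraries). PA replicate 1 is the highest library for the 4 main subunits and Musk, and Chrne reaches 0.966 FPKM at most.

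Palmitic acid alone was compared with control to ask what the fatty acid does to the receptor genes. In the fit of all genes the log2 fold change of PA against control was 0.63 ± 0.23 (SE) for Chrnd, 0.58 ± 0.38 for Musk, 0.56 ± 0.26 for Chrna1, 0.53 ± 0.28 for Chrng and 0.00 ± 0.24 for Chrnb1. The Musk value rested largely on PA replicate 1: it was 0.24 without that library and 0.15 without both it and control replicate 3. None of the 5 passed edgeR's quasi-likelihood test, with Benjamini-Hochberg adjusted p-values of 0.186 for Chrnd, 0.387 for Musk, 0.252 for Chrna1, 0.309 for Chrng and 0.995 for Chrnb1. No gene at all did (0 of 12548, 0%), although 2453 had an unadjusted p under 0.05, DESeq2 called 474 and limma on log2(FPKM + 1) called 0. By TMM-scaled CPM, Chrna1 and Chrnd were higher in every PA library than in every control library, as were 11.7% of all genes tested.

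Relative to coding genes without an opposite-strand gene, the differences between PA and control were smaller for Chrnd, Chrna1, Chrng and Musk, and Chrnb1 moved below 0. There the fold changes were 0.35 ± 0.16 for Chrnd (adjusted p = 0.397, edgeR), 0.28 ± 0.13 for Chrna1 (0.425) and 0.26 ± 0.16 for Chrng (0.608), 0.28 ± 0.39 for Musk (0.876) and -0.29 ± 0.22 for Chrnb1 (0.696). The fit called 4 genes higher (0.0676%) and 61 lower (1.03%), none of them a member. On this scale Chrna1 had 1154, 1047 and 1099 CPM in PA replicates 1, 2 and 3, against 880, 816 and 1013 CPM in control replicates 1, 2 and 3. The groups did not overlap for Chrna1 and Chrnd, as was so for 7.72% of the 5920 genes in the same direction.

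Leaving out control replicate 3 and PA replicate 1, the libraries with the highest strand ratio in their groups, and so keeping 2 libraries in each, brought 3 of the 5 tested members past the threshold in PA against control. Chrna1 then rose by a log2 of 0.68 (edgeR adjusted p = 0.00178), Chrnd by 0.69 (0.0118) and Chrng by 0.69 (0.00608), in a fit that called 6.18% of 12351 genes higher and 13.0% lower. The kept PA libraries had strand ratios of 1.21 and 1.22 and the kept controls 0.685 and 0.633. Palmitic acid and strand ratio therefore cannot be told apart in that fit. With the strand ratio as a covariate and all libraries kept, the fold changes were 0.24 for Chrna1, 0.38 for Chrnd and 0.03 for Chrng. None of them passed the threshold. Control replicate 3 alone moved the Chrng value most among single libraries: without it PA against control was 0.87 (adjusted p = 0.0678) and PA + carnitine against control -0.03.

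Carnitine added to palmitic acid was compared with palmitic acid alone. Chrng had the lowest fold change of the members, -0.89 ± 0.29 in the fit of all genes (unadjusted p = 0.00774, adjusted p = 0.133, edgeR). Those of Chrnd, Chrna1, Musk and Chrnb1 were -0.46 ± 0.23, -0.41 ± 0.26, -0.34 ± 0.38 and -0.02 ± 0.24, with adjusted p-values of 0.234, 0.329, 0.588 and 0.976. Without PA replicate 1 the Musk value was -0.0009. Again edgeR called 0 of 12548 genes (0%), with 3046 at an unadjusted p under 0.05, while DESeq2 called 817 and limma 1. Chrna1, Chrnd and Chrng were lower in every PA + carnitine library than in every PA library, as were 18.3% of genes.

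Chrng also had the lowest fold change of the members when scaled to genes with none on the other strand. Among coding genes with no opposite-strand gene it had 486, 516 and 439 CPM in PA + carnitine replicates 1, 2 and 3, 802, 660 and 644 CPM in PA replicates 1, 2 and 3, and 484, 541 and 726 CPM in control replicates 1, 2 and 3. Its PA + carnitine libraries all lay below its PA libraries, as was so for 9.02% of the genes on that scale, and they overlapped with control. The fold change of PA + carnitine against PA was -0.55 ± 0.16 (unadjusted p = 0.00229, adjusted p = 0.0962, edgeR), which does not pass. Without PA replicate 1 it was -0.44 (adjusted p = 0.442). On this scale Chrnd had -0.12 ± 0.16, Chrna1 -0.06 ± 0.13, Musk 0.02 ± 0.39 and Chrnb1 0.32 ± 0.22. For each of these genes, Chrna1 and Chrnd included, the PA + carnitine and PA libraries overlapped on this scale. This fit called 60 genes higher (1.01%) and 6 lower (0.101%), none of them a member.

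The call on Chrng depended on the test. It passed in DESeq2 at -0.85 (adjusted p = 0.0365), where 2.34% of the 5736 genes given an adjusted p were called lower. It also passed in edgeR without a filter on low counts at -0.93 (adjusted p = 0.0462, 0.648% of 22831 genes called lower). In edgeR without control replicate 3 and PA replicate 1 it passed at -0.72 (adjusted p = 0.00224, 2.62% of 12351 genes called lower). In that last fit the strand ratios were 1.21 and 1.22 in the kept PA libraries and 0.653 to 0.831 in PA + carnitine. Carnitine and strand ratio therefore cannot be told apart there. Chrng did not pass with the strand ratio as a covariate, where it was -0.30 (adjusted p = 0.999), or in the other alternatives run.

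For PA + carnitine against control, Chrng had -0.36 ± 0.29, Chrnb1 -0.01 ± 0.25, Chrna1 0.15 ± 0.26, Chrnd 0.17 ± 0.23 and Musk 0.24 ± 0.39, each with an adjusted p of 1.00 in edgeR. The call count was 0 of 12548 (0%), with 346 genes at an unadjusted p under 0.05 and 0 called by DESeq2 and by limma. A span of 2 SE to each side of these values reaches from -0.93 to 0.21 for Chrng and from -0.51 to 0.48 for Chrnb1. Changes within these spans were not excluded, and the spans do not give the size of change that the test could detect. By TMM-scaled CPM no member separated PA + carnitine from control, where 3.69% of genes were higher and 4.84% lower without overlap. Among coding genes with no opposite-strand gene the fold changes were -0.29 ± 0.17 for Chrng, 0.03 ± 0.22 for Chrnb1, 0.22 ± 0.13 for Chrna1, 0.23 ± 0.16 for Chrnd and 0.29 ± 0.41 for Musk, with adjusted p-values of 0.940 to 0.997 (edgeR). On that scale Chrnd was higher in every PA + carnitine library than in every control library, at 379, 401 and 428 CPM in PA + carnitine replicates 1, 2 and 3 against 311, 362 and 355 CPM in control replicates 1, 2 and 3, as were 4.93% of genes.

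**Figure D3:**
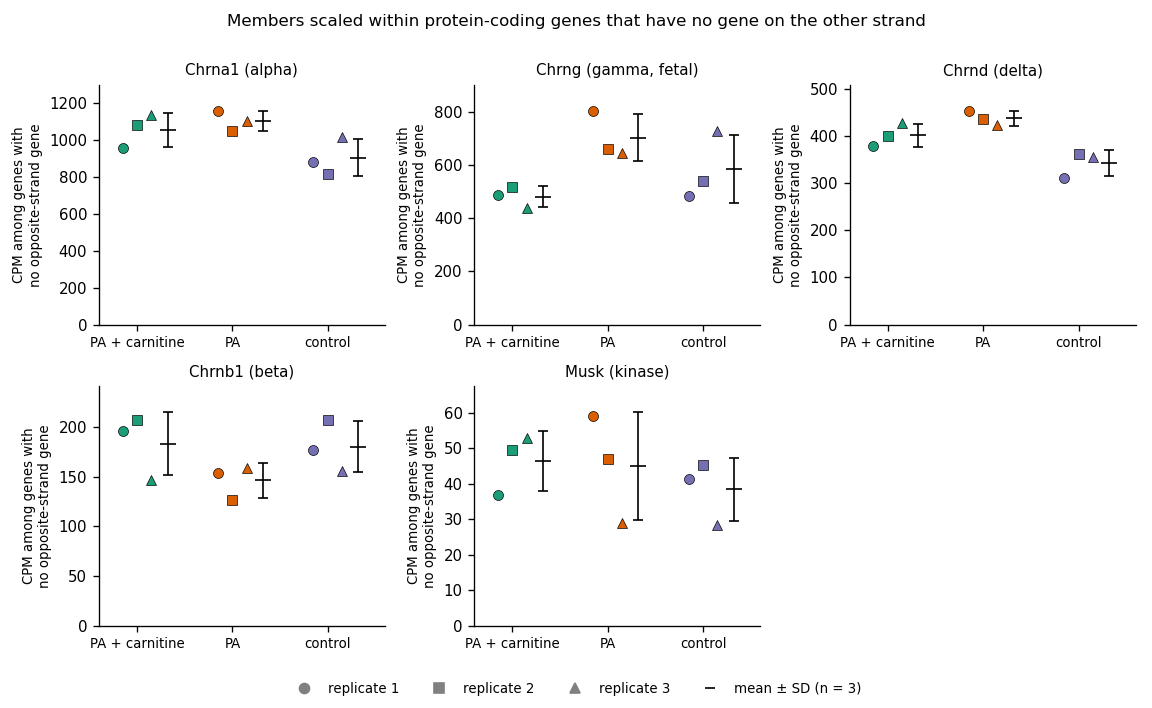
CPM of the 5 tested members within coding genes that have no gene on the other strand, by group and replicate, with mean ± SD (n = 3). PA replicate 1 stands less far out than in FPKM, and the PA + carnitine libraries of Chrng, at 439 to 516 CPM, lie below its PA libraries at 644 to 802 CPM.

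**Figure D4:**
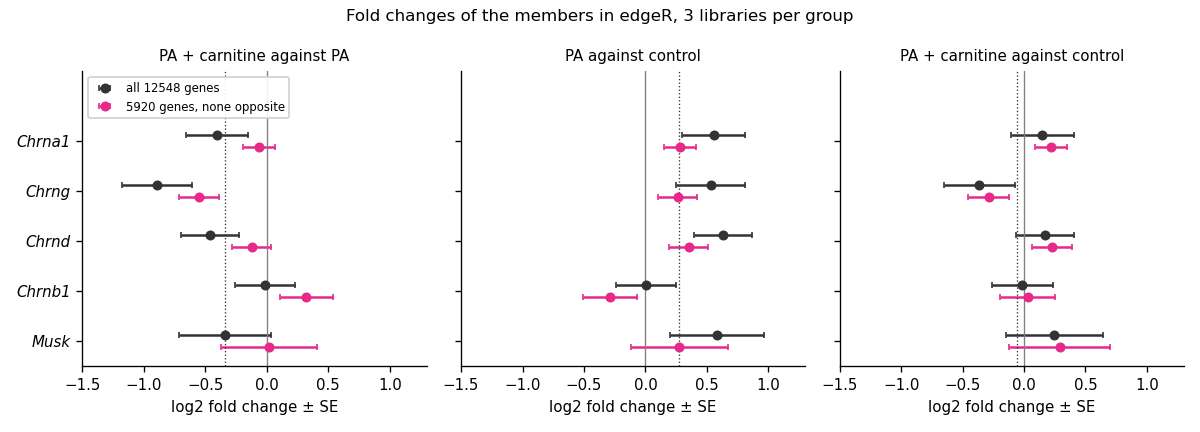
Log2 fold change ± SE of the 5 tested members in 3 comparisons, from edgeR over all genes (grey) and over coding genes with no opposite-strand gene (pink); the dotted line is the median of the latter genes in the fit of all genes. Chrng against PA lies left of the other members in both fits, at -0.89 and -0.55.

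Ratios between subunits within a library do not depend on how the library was scaled. They were formed after the values had been seen, for 10 pairs of the 5 tested members in 3 comparisons. None of the 30 exact permutation tests could go below p = 0.1, and the smallest Benjamini-Hochberg adjusted p obtained was 0.375. The ratio of Chrng to Chrna1 FPKM was 0.538, 0.505 and 0.409 in PA + carnitine replicates 1, 2 and 3, 0.732, 0.665 and 0.617 in PA replicates 1, 2 and 3, and 0.579, 0.698 and 0.755 in control replicates 1, 2 and 3. The 3 PA + carnitine libraries were therefore the lowest of the 9, with a mean of 0.484 ± 0.067 (SD, n = 3), against 0.671 ± 0.058 in PA and 0.678 ± 0.090 in control. Of all genes tested, 3.68% had a ratio to Chrna1 that was lower in every PA + carnitine library than in every PA library, and 8.34% one that was lower than in every control library.

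Against Chrnd, its neighbour on chromosome 1, Chrng gave the same order. The ratio averaged 0.947 ± 0.118 in PA + carnitine, 1.26 ± 0.11 in PA and 1.34 ± 0.24 in control (SD, n = 3), and the PA + carnitine libraries were again the lowest of the 9. For a ratio to Chrnd, 3.08% of genes were lower in PA + carnitine than in PA without overlap and 9.91% were lower than in control. Chrng to Chrnb1 was 1.61 ± 0.18 in PA + carnitine, 2.93 ± 0.41 in PA and 2.02 ± 0.70 in control, without overlap between PA + carnitine and PA (13.2% of genes). Gamma made up 19.1 to 22.2% of the summed subunit FPKM in PA + carnitine libraries, 25.9 to 29.4% in PA libraries and 24.1 to 30.3% in control libraries.

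The alpha and delta subunits kept a steady proportion. Chrnd to Chrna1 averaged 0.510 ± 0.018 in PA + carnitine, 0.531 ± 0.023 in PA and 0.510 ± 0.070 in control (SD, n = 3), and its groups overlapped in every comparison. Beta ran lower relative to alpha in PA, with 0.231, 0.209 and 0.250 in PA replicates 1, 2 and 3 against 0.349, 0.441 and 0.268 in control replicates 1, 2 and 3, and 27.0% of genes were lower in PA in the same way. Chrnd to Chrnb1 was 2.32 ± 0.31 in PA against 1.48 ± 0.23 in control, without overlap (10.9% of genes). In all, 4 of 10 ratios did not overlap between PA + carnitine and PA, 2 between PA and control and 2 between PA + carnitine and control. All of those in the comparisons with PA + carnitine held Chrng, so they repeat the same gene and are not separate results. Chrng to Musk was among them, at 9.65 ± 2.23 in PA + carnitine against 15.1 ± 4.4 in PA. The share of all genes is given above for the other ratios, and for a ratio to Musk it was not computed.

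**Figure D5:**
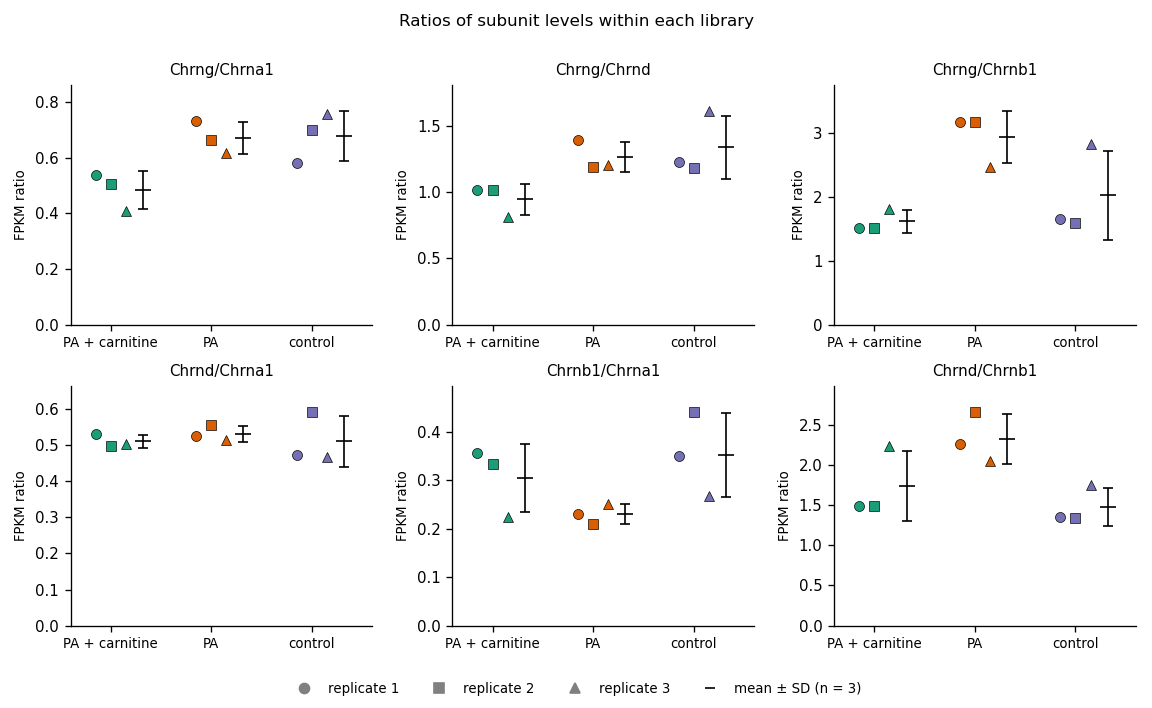
Ratios of subunit FPKM within each library, by group and replicate, with mean ± SD (n = 3). The ratios of Chrng to Chrna1 and to Chrnd are lowest in the 3 PA + carnitine libraries, while Chrnd to Chrna1 overlaps in all groups.

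Over the 9 libraries, which differ in strand ratio as well as in treatment, Chrna1 and Chrnd moved most alike of the members (Pearson r of log2 CPM 0.944, the 46th highest of 12548 genes for Chrna1). Chrng followed both less closely, at 0.815 with Chrna1 and 0.818 with Chrnd, and Chrnb1 had 0.045 with Chrna1 and 0.077 with Chrnd. The genes most like Chrna1 were Gipc1, Ppp2r1a and Plbd2 (0.991, 0.986 and 0.981), and Tmem259 and Cul7 were among those most like Chrnd (0.977 and 0.975). Chrng was most like Ccnd3, Sod3 and Bsg (0.988, 0.987 and 0.985), Chrnb1 like Map4k2, Rbl1 and Btbd17 (0.952, 0.952 and 0.939), and Musk like Camk2d, Ddost and Surf4 (0.875, 0.872 and 0.870).

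The partners of MuSK upstream and downstream were all measured. Lrp4, the agrin receptor, had 10.9, 10.4 and 9.59 FPKM in PA + carnitine replicates 1, 2 and 3, 29.3, 17.0 and 17.5 FPKM in PA replicates 1, 2 and 3, and 8.20, 8.73 and 17.5 FPKM in control replicates 1, 2 and 3. Its fold changes were -0.60 ± 0.27 for PA + carnitine against PA (adjusted p = 0.191, edgeR) and 0.53 ± 0.27 for PA against control (0.286), and among coding genes with no opposite-strand gene they were -0.26 ± 0.16 and 0.26 ± 0.16. In the fit of all genes the same 2 comparisons gave -0.72 ± 0.43 and 0.57 ± 0.42 for Dok7, the MuSK adaptor, and -0.34 ± 0.47 and 0.42 ± 0.47 for Agrn, which muscle itself also makes in a form with little clustering activity. Rapsn, the scaffold under the receptor, had -0.38 ± 0.29 and 0.50 ± 0.29, with Gm13778 annotated on its other strand. In the restricted fit Dok7 had -0.39 ± 0.37 and 0.34 ± 0.37, and Agrn -0.01 ± 0.37 and 0.17 ± 0.37. None of these 4 genes passed.

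Of 24 genes of agrin, LRP4 and MuSK signalling, all 24 were tested and edgeR called none in any comparison. Their median fold change was -0.34 for PA + carnitine against PA, 0.30 for PA against control and 0.02 for PA + carnitine against control. That is beside -0.10, 0.06 and -0.02 for all genes and -0.34, 0.27 and -0.06 for coding genes with no opposite-strand gene in the same fit. In the fit of the latter genes, which held 12 of the 24, the list's medians were -0.04, 0.06 and 0.01, so its distance from all genes was not seen on that scale. The 4 with the smallest p-values were Sorbs2, Cdc42, Lrp4 and Ptpn11. Of these, Sorbs2, which carries an opposite-strand gene, had 0.72 ± 0.27 in PA against control and Cdc42, a regulator of the actin cytoskeleton, had -0.80 ± 0.35 in PA + carnitine against PA (-0.47 ± 0.29 in the restricted fit), neither past the threshold.

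Among 23 genes of the postsynaptic scaffold and synaptic cleft, all tested, none was called and the medians were -0.35, 0.36 and -0.01 in the same order of comparisons. The 13 without an opposite-strand gene had medians of -0.04, 0.09 and 0.08 in the restricted fit. The smallest p-values of the list belonged to Dtnb, Lama2, Lama5 and Prkar1a, and Dtnb, a dystrobrevin with an opposite-strand gene body, had the largest fold of these, -1.77 ± 0.74 for PA + carnitine against PA (adjusted p = 0.177, edgeR). Of 11 genes of neuregulin signalling and Ets factors, 10 were tested and none called, with medians of -0.24, 0.30 and -0.10, and of -0.53, 0.15 and -0.31 for 6 of them in the restricted fit. Erbb3, a neuregulin receptor, had -0.88 ± 0.28 for PA + carnitine against PA and 0.61 ± 0.27 for PA against control, and the Ets factor Ets2 had -0.85 ± 0.27 and 0.29 ± 0.27. For Erbb3 and Ets2 the adjusted p-values for PA + carnitine against PA were both about 0.13. In the restricted fit Erbb3 had -0.56 ± 0.27 and 0.33 ± 0.26, and Ets2 -0.51 ± 0.20 and 0.00 ± 0.20, none past the threshold.

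Denervation and inactivity act on the receptor genes through myogenin, its repressors and class II histone deacetylases. Of 24 such regulators, 20 were tested and none called in the fit of all genes, with medians of -0.46, 0.35 and -0.10. In the restricted fit 15 were tested, with medians of -0.22, 0.05 and -0.03, and 1 was called in PA + carnitine against PA, 1 in PA against control and 0 in PA + carnitine against control. What was called is not named here. Of all 5920 genes of that fit, 1.01% were called higher and 0.101% lower in PA + carnitine against PA. In PA against control the shares were 0.0676% higher and 1.03% lower. Myog, which encodes myogenin, had 86.7, 80.3 and 73.2 FPKM in PA + carnitine replicates 1, 2 and 3, 207.8, 129.2 and 141.6 FPKM in PA replicates 1, 2 and 3, and 88.6, 78.0 and 145.1 FPKM in control replicates 1, 2 and 3. Its fold change was -0.57 ± 0.24 for PA + carnitine against PA (adjusted p = 0.185, edgeR) and 0.26 ± 0.24 for PA against control (0.551), and in the restricted fit -0.23 ± 0.14 and -0.01 ± 0.14, so its direction against control depended on the scaling. Like Chrng, Myog had its 3 PA libraries above its 3 PA + carnitine libraries and control replicate 3 within the PA range. By TMM-scaled CPM 18.3% of all genes tested were lower in PA + carnitine without overlap with PA. Myod1 had -0.31 ± 0.27 and 0.33 ± 0.27 in those comparisons, against 0.03 ± 0.19 and 0.05 ± 0.19 in the restricted fit. Hdac4, a histone deacetylase known to repress a myogenin repressor, had -0.17 ± 0.28 and 0.78 ± 0.28, in the fit of all genes, with Gm26720 on its other strand.

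Of 16 other nicotinic and muscarinic receptor genes, 6 were in the table and 2 were tested, Chrnb2 and Chrna10, both with a gene on the other strand over their exons. Chrnb2 had 31.0, 32.7 and 37.0 FPKM in PA + carnitine replicates 1, 2 and 3, 10.6, 27.1 and 24.6 FPKM in PA replicates 1, 2 and 3, and 34.2, 32.5 and 27.0 FPKM in control replicates 1, 2 and 3. It is lowest in PA replicate 1, the library with the highest strand ratio, and lies opposite Adar, so reads from the pair could not be told apart here. Of 11 genes of receptor assembly and quality control, 9 were tested and none called, with medians of -0.20, 0.18 and -0.03, whose first and second signs turned in the restricted fit (0.13, -0.11 and -0.07 for 5 of them). Calr and Canx, which encode chaperones of the endoplasmic reticulum, were among the 4 with the smallest p-values.

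Myotube and myoblast markers had median fold changes of the same sign as those of Chrna1, Chrnd and Chrng in both comparisons with PA. These signs were not particular to the markers. In the fit of all genes, those that code for protein and lack a partner on the other strand shared them. The median there was -0.34 for PA + carnitine against PA and 0.27 for PA against control. The MuSK signalling, scaffold, neuregulin, denervation and assembly lists above shared the signs in that fit too. For all genes of the restricted fit the medians were -0.001 and -0.006. All 12 myotube markers were tested and none was called, and their summed level was 4032 to 4999 FPKM in PA + carnitine, 6721 to 10981 FPKM in PA and 3716 to 6145 FPKM in control libraries. Their median fold change was -0.55 for PA + carnitine against PA and 0.38 for PA against control, and Mymk, the fusion protein myomaker, had -0.91 ± 0.27 and 0.82 ± 0.27. In the restricted fit the medians of 7 of the 12 were -0.23 and 0.16, and Mymk had -0.56 ± 0.17 and 0.54 ± 0.17. Myoblast and reserve cell markers, 6 of 7 tested and none called, summed to 67.5 to 100.6 FPKM in PA + carnitine, 120.2 to 231.0 FPKM in PA and 73.4 to 125.9 FPKM in control libraries. Their median fold changes were -0.63 and 0.34 in the fit of all genes and -0.16 and 0.06 for 5 of them in the restricted fit. The part of these markers in the subunit values was not tested.

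Most nerve and glial markers had too few counts for a test. The neuron and motor nerve terminal list had 1 of 6 genes tested, Nefl, which lies opposite Nefm, and summed to 3.50 to 5.07 FPKM in PA + carnitine, 4.81 to 7.29 FPKM in PA and 1.92 to 6.44 FPKM in control libraries. Snap25, a nerve terminal protein, was at 0 in 8 of 9 libraries and had 14 counts (0.783 FPKM) in PA + carnitine replicate 3. Syp, of the same list, had 3 and 4 counts in PA + carnitine replicates 1 and 3 and 5 in PA replicate 1. It was at 0 in the other libraries. Chat was not among the genes listed for this series. The Schwann cell list had 1 of 5 genes tested, Erbb3, which the neuregulin list also holds, and summed to 2.73 to 4.83 FPKM in PA + carnitine, 6.64 to 8.44 FPKM in PA and 3.81 to 4.67 FPKM in control libraries. Fibroblast markers had 2 of 5 tested, Dcn and Pdgfra, with sums of 3.35 to 3.50 FPKM in PA + carnitine, 4.40 to 5.07 FPKM in PA and 2.59 to 5.71 FPKM in control libraries. No gene of these 3 lists was called.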

How the data were processed

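RNA from C2C12 myotubes was sequenced as 9 stranded mRNA libraries, 3 per group as the treatment label assigns them. Per the file headers, the deposited table pairs raw counts with FPKM for each gene; the authors made the FPKM from gene length and each sample's count total, as the values show. Tools listed in the submitters' processing notes are HTSeq 0.13.5, edgeR, Trim Galore 0.6.4, HISAT2 2.2.0 and Bowtie2 2.4.2, with the builds GRCm39, GRCh38 and Rnor_6.0. The strand setting and rules for shared reads are not given in the sources used here.

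Counts were tested with edgeR 4.0.16 (TMM, filterByExpr with a minimum count of 10 and minimum total of 15, quasi-likelihood test) in 1 fit of 9 samples with group as the factor. The test was two-sided, p-values were adjusted over all genes tested by Benjamini-Hochberg, and a call was made under 0.05. DESeq2 1.42.0 and limma 3.58.1 on log2(FPKM + 1), and the settings in the closing section, were alternatives. Members and lists were chosen with earlier results of these data known. Named genes are the 6 members, up to 4 genes per list with the smallest p, and Rapsn, Lrp4, Dok7, Agrn, Myog and Myod1. Snap25 and Syp stand outside that rule and were chosen after their values were seen. Some genes of the rule and lists are not reported here. Strand relations came from GENCODE M21 (GRCm38), joined by gene ID for 22506 genes. Likeness used log2 CPM with a prior count of 2. Ratios between groups were tested by exact permutation with scipy 1.17.1. On simulated counts for PA against control, 69.5% of 200 genes changed by a log2 of 2 were recovered among 12548 genes, and 0% of those changed by a log2 of 1. Positions are the table's own, and promoters are RefSeq's on GRCm38.p6. Replicates of a group differed by more than sampling noise, and each counted as 1 sample. That difference does not show that they came from separate cultures.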

Additional observations from a re-analysis of the deposited data

How the results depend on the processing

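The number of genes called varied with the setting. In PA against control edgeR called 0, against 474 by DESeq2, 1118 without a filter on low counts, 65 among genes with no opposite-strand gene, 23 among those without PA replicate 1 (added after seeing the data), and 2369 without control replicate 3 and PA replicate 1. Leaving out single libraries gave 0 to 768, the highest without control replicate 3. In PA + carnitine against PA it called 0, against 817, 1366, 66, 25 and 1685 in the same settings and 1 by limma, and 0 to 6 without single libraries, the highest without control replicate 3. In PA + carnitine against control it called 0, against 5 without the filter and 9 without control replicate 3 and PA replicate 1, and 0 in each fit without a single library. Size factors in place of TMM, the replicate block and the strand ratio as a covariate called 0 in every comparison.

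Chrnb1, near 0, changed sign most. For PA against control (0.00) it was -0.093 without control replicate 3 and PA replicate 1, -0.035 by DESeq2, -0.037 with size factors, -0.29 among genes with no opposite-strand gene, -0.33 among those without PA replicate 1, -0.0075 with the replicate block, -0.19 with the strand ratio as a covariate, and -0.10 to 0.13 without single libraries. For PA + carnitine against PA (-0.02) it was 0.088, 0.022, 0.023, 0.32, 0.36 and 0.20 in those settings other than the block, and -0.14 to 0.12 without single libraries. For PA + carnitine against control (-0.01) it was 0.031 among genes with no opposite-strand gene, 0.034 among those without PA replicate 1, 0.011 with the covariate, and -0.092 to 0.13 without single libraries. Musk in PA + carnitine against PA (-0.34) was 0.016, 0.28 and 0.13 in those 3 settings and -0.59 to -0.0009 without single libraries. None of these passed a threshold, and the cause was not tested. The gamma to epsilon differences kept their direction in all 24 alternatives. Chrne had a count in only 2 libraries, so elsewhere the Chrng count and the number added set the ratio. The kept direction therefore does not settle whether the ratio differed between groups. Chrna1, Chrnd and Chrng kept theirs in every alternative run.

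Replicate numbers share no stated culture or day, and libraries of the same number deviated together with correlations of -0.39 to 0.26, so the replicate block is not a pairing; with it 0 genes were called in each comparison. Depth limits Chrne, at 6 counts in all, and Musk, at 350.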
